A study of Mus musculus with 2 samples.

Results

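Immediate early genes are switched on by growth factors, hormones or stress from factors already present in the cell, without new protein synthesis, and many encode transcription factors. FOS and JUN proteins pair to form the dimeric factor AP-1, EGR1 is a zinc finger factor, ATF3 is a stress-induced relative of the AP-1 proteins, and MYC drives ribosome synthesis and cell growth. In the liver these genes are known for their brief induction after partial hepatectomy, when hepatocytes leave quiescence. Their levels were examined in the liver of iFIRKO mice, a model of acute adipocyte loss. The set of 10 genes, *Fos*, *Fosb*, *Jun*, *Junb*, *Jund*, *Atf3*, *Egr1*, *Ier2*, *Ier3* and *Myc*, was fixed by name, and each symbol was found once among 53241 distinct symbols in both deposited tables.

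One liver mRNA library was available for each of 2 groups, control and iFIRKO. The iFIRKO library is labelled Adipoq-CreERT2; Insr flox/flox, in which a tamoxifen-inducible Cre under the adiponectin promoter deletes the insulin receptor gene in adipocytes and not in liver cells. The control library is labelled WT, while the study describes its control mice as IR flox/flox, so the sources differ on whether the control carried the floxed alleles. Both groups were male, 7 weeks old, given tamoxifen at 100 mg/kg on 5 consecutive days and sampled 3 days after the last dose. Whether a library came from 1 mouse or a pool is not stated. With 1 library a group, no difference has a replicate check, no p-value was computed, and each comparison is between these 2 libraries.

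Values are normalized reads per gene, returned from the deposited log2 scale. Estimated depth was 21138292 read pairs for control and 20652476 for iFIRKO, taking the commonest low value as 1 read pair. The fold change is iFIRKO over control after adding 4.18 normalized reads to both, a CPM (the count scaled to library size) of 0.1. Intervals are 95% exact Clopper-Pearson intervals of the ratio of estimated read pairs without that pseudocount, and they cover counting error only. A gene is called higher or lower past 1.5-fold, the threshold in the methods, and tested where at least 41.8 normalized reads (a CPM of 1) were present in 1 or both libraries, which left 13400 genes with a median log2 fold change of 0.01. *Alb*, the hepatocyte albumin gene, was abundant in both libraries, at 4167154 (control) and 3944155 (iFIRKO) normalized reads. *Insr* itself had 4246 and 3692 normalized reads, which does not check the deletion, since that is made in adipocytes.

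All 10 genes passed the expression minimum, and they did not move as a block. *Junb*, *Egr1* and *Ier2* were each more than 2-fold lower in the iFIRKO liver, *Myc* was just past 1.5-fold lower, *Fosb* and *Atf3* were higher from low levels, and *Fos*, *Jun*, *Jund* and *Ier3* stayed within 1.5-fold. Thus 4 of 10 genes were called lower, against 7.28% of all tested genes, and 2 were called higher, against 4.46%. *Fosb*, 1 of these 2, reached the minimum only in the iFIRKO library, where it is high, so its direction, though not its size, was fixed by that filter. With the minimum required in both libraries, *Atf3* was the 1 gene called higher. At a stricter minimum of 209 normalized reads (a CPM of 5), where 7 of the 10 genes are measured, 4 were lower and 0 higher, against 4.34% and 2.84% of 10145 genes. The median log2 fold change of the 10 genes was -0.28, beside 0.01 over all tested genes.

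**Figure D1:**
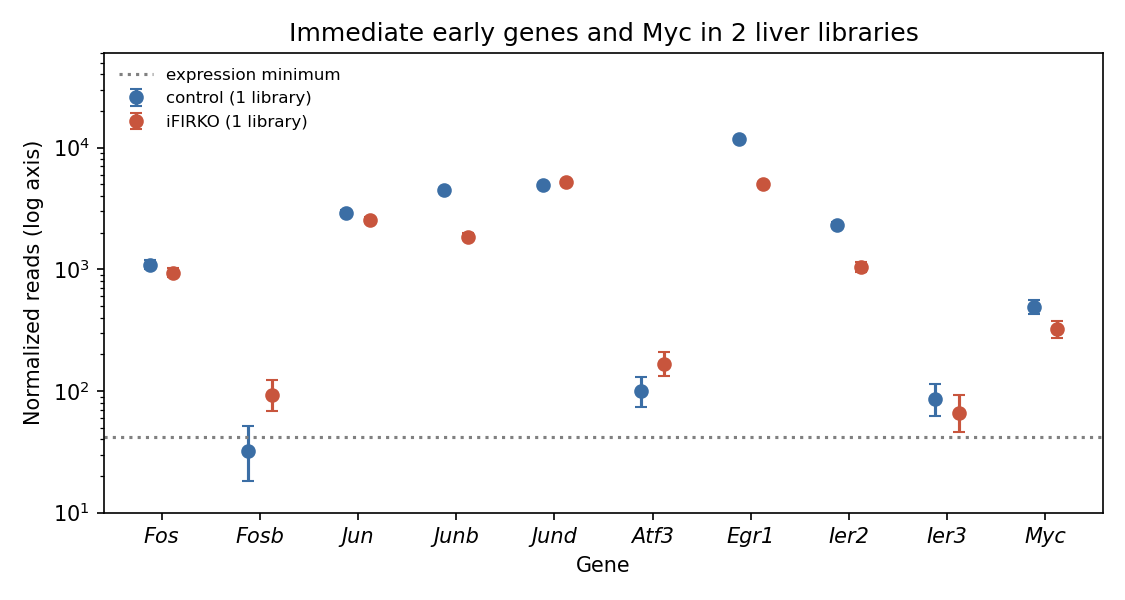
Normalized reads (log axis) of each of the 10 genes in the control and iFIRKO liver, 1 library each; bars are 95% Poisson intervals, which cover counting error only, and the dotted line is the minimum of 41.8. *Junb*, *Egr1*, *Ier2* and *Myc* sit lower in iFIRKO with separate intervals, *Fosb* and *Atf3* sit higher, and *Fosb* is below the minimum in control.

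To show what the regulatory sequences of these genes share, the 300 bases around the RefSeq start (250 before, 50 after, GRCm38.p6) were searched on both strands. Windows for 7 of the 10 genes matched by symbol, and the other 3 genes were *Egr1*, *Ier2* and *Myc*. The cAMP response element (CRE) half-site TGACG, recognised by CREB and ATF factors, occurred in 4 of 7 windows (*Fos*, *Fosb*, *Junb* and *Atf3*), beside 20.8% of 32851 windows of all genes. The TATA box letters TATAAA occurred in 2 of 7 (*Fos*, and *Junb* at 1 to 6 from the RefSeq start) beside 13.6%. The RefSeq start of *Junb* lies 30 bases before its GENCODE start, so these *Junb* letters lie before the GENCODE start. The EGR site GCGNGGGCG occurred in 1 of 7 beside 5.55%. The full CRE (TGACGTCA), the AP-1 site (TGANTCA) and the serum response element, searched by its usual consensus, occurred in 0 of 7, beside 1.79%, 7.81% and 1.63%, which says only that these letters are not in this window. The GC box GGGCGG, whose letters overlap some EGR sites, occurred in 5 of 7 beside 35.7%, the CCAAT box in 4 of 7 beside 37.4% and the E-box CACGTG in 0 of 7 beside 7.15%.

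The 140 bases before the start are shown for the 4 genes with a half-site, since these include a gene within 1.5-fold (*Fos*), a lower gene (*Junb*) and both higher genes (*Fosb* and *Atf3*). Each is written 5′ to 3′ along the gene, with CRE half-sites, TATAAA and the EGR site in capitals. They lie at chr12:85473750-85473889 (forward strand) for *Fos*, chr7:19310046-19310185 (reverse) for *Fosb*, chr8:84978749-84978888 (reverse) for *Junb* and chr1:191183334-191183473 (reverse) for *Atf3*.
Fos: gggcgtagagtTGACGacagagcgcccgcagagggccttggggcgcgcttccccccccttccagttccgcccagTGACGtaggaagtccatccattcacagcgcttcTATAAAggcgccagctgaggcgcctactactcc
Fosb: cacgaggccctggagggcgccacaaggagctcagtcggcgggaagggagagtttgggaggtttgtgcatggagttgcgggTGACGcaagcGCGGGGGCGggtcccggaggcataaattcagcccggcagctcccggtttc
Junb: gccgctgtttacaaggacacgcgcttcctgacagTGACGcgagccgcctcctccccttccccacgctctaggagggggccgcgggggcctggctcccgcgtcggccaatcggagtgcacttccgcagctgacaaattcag
Atf3: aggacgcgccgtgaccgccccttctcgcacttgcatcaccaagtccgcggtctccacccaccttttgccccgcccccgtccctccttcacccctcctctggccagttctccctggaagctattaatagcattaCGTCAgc

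Counting from -1 at the base before the RefSeq start, the *Fos* half-sites lie at -129 to -125 and -66 to -62 and its TATAAA at -33 to -28. The *Fosb* half-site lies at -60 to -56 with the EGR site at -50 to -42, and that of *Junb* at -106 to -102. The *Atf3* half-site, at -7 to -3, is on the reverse strand and reads CGTCA along the gene. The 4 stretches hold 62.1% (*Atf3*) to 67.1% (*Junb*) G and C. A half-site thus occurs before a lower gene (*Junb*), both higher genes and a gene within 1.5-fold (*Fos*). The other genes called lower, *Egr1*, *Ier2* and *Myc*, had no window. The *Atf3* start used lies inside its annotated span (191170296 to 191218039), and the outer start of that span was not searched.

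The Fos genes encode the AP-1 subunits that must pair with a Jun protein to bind DNA. *Fos* (chromosome 12 of GRCm38, 85473890 to 85477273, 4 exons) had 1088 normalized reads in control liver and 940 in iFIRKO liver. Its log2 fold change of -0.21 (interval -0.39 to -0.03) lay below 0 but within 1.5-fold. *Fosb* (chromosome 7, 19302696 to 19310051, 4 exons), its close relative, had 31.8 (control) and 92.6 (iFIRKO) normalized reads, from 16 and 46 estimated read pairs. The log2 fold change was 1.43 (interval 0.69 to 2.46), making *Fosb* the only one of the 10 genes more than 2-fold higher.

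Between these subunits the level per length differed far more than between the libraries. Per kilobase of the longest annotated coding transcript, *Fos* had 516 (control) and 446 (iFIRKO) normalized reads, and *Fosb* had 8.41 and 24.5. The *Fosb* share of the Fos pair was therefore 1.60% in control and 5.20% in iFIRKO. The log2 ratio of *Fosb* to *Fos* differed between the libraries by 1.75, with an exact conditional interval from 0.88 to 2.69, and this ratio within a library does not depend on how the libraries were scaled.

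The 3 Jun genes each encode an AP-1 subunit that can pair with FOS or with another JUN. *Junb* (chromosome 8, 84974484 to 84978718) had 4493 normalized reads in control liver and 1850 in iFIRKO liver. It was 2.43-fold lower, log2 fold change -1.28 (interval -1.39 to -1.17), and ranked 121 from the lowest among the 13400 genes tested. *Jun* (chromosome 4, 95049034 to 95052222), the founding member, had 2907 and 2536 normalized reads, log2 fold change -0.20 (interval -0.31 to -0.09). *Jund* (chromosome 8, 70698949 to 70700616), which is expressed more steadily in resting cells than the others, had 4966 and 5171, log2 fold change 0.06 (interval -0.02 to 0.14). Thus the 3 paralogs parted: *Junb* was lower, *Jun* was slightly lower within 1.5-fold, and no difference in *Jund* was detectable at this depth.

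Per kilobase the Jun genes together had 6372 (control) and 4918 (iFIRKO) normalized reads. *Junb* made up 39.0% of that sum in control and 20.8% in iFIRKO, while *Jund* made up 46.7% and 63.0% and *Jun* 14.3% and 16.2%. With the lengths used, the order in both libraries was *Jund*, *Junb*, *Jun*, but *Junb* was 2.72 times the level of *Jun* in control and 1.29 times in iFIRKO. The RefSeq start of *Jund* lies 1210 bases before the GENCODE start that gives its length of 1668 nt. A longer *Jund* would have a lower level per kilobase, so this order, the sum and the shares depend on the annotation. The differences between libraries given next do not depend on length. The log2 ratio of *Junb* to *Jund* differed between the libraries by -1.34 (exact conditional interval -1.48 to -1.20), and that of *Junb* to *Jun* by -1.08 (-1.24 to -0.92). The ratio of *Jun* to *Jund* differed by -0.26 (-0.39 to -0.12).

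**Figure D2:**
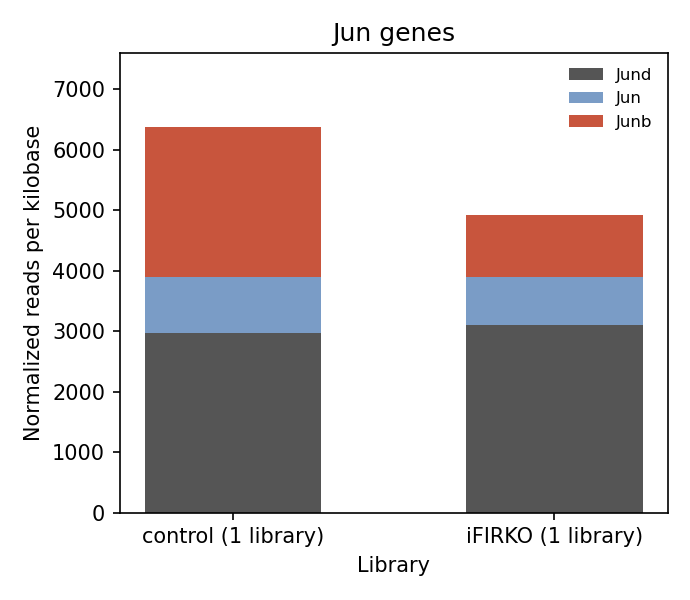
Normalized reads per kilobase of the 3 Jun genes, stacked, in the control and iFIRKO liver, 1 library each, from 0. The sum is 6372 in control and 4918 in iFIRKO, and the *Junb* part is 39.0% and 20.8% of it. Lengths are from GENCODE, and a longer *Jund* would lower its part.

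Antisense annotation touches 2 of these genes, and the authors' counting is not stated to use strand. Of the 50-base stretches of the *Jund* transcript, 48.3% also occur in *Gm11175*, an antisense gene inside the *Jund* exon, and 5.83% of those of *Jun* occur in the antisense gene *Junos*. *Gm11175* had 22.25 (control) and 18.0 (iFIRKO) normalized reads, and *Junos* had 26.4 and 3.997, all under the minimum. None of the 50-base stretches of the other 8 genes occurred in transcripts of another gene in GENCODE M21. The *Junb* locus overlaps the end of *Prdx2* on the other strand, and *Prdx2* had 4128 and 3733 normalized reads, a log2 fold change of -0.14.

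*Atf3* (chromosome 1, 191170296 to 191218039, 4 exons), a stress-induced factor of the ATF family, had 99.1 normalized reads in control liver and 168 in iFIRKO liver. Its log2 fold change of 0.74 was past 1.5-fold, with an interval from 0.23 to 1.29 that reaches below that threshold. With a pseudocount of a CPM of 1 it was 0.57 and no longer called. *Atf3* and *Fosb* were the only 2 of the 10 genes called higher, both with under 209 normalized reads in each library.

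*Egr1* (chromosome 18, 34859823 to 34864984, 2 exons), a zinc finger factor induced through ERK signalling, was the member with most reads in control. In iFIRKO, *Jund* had more (5171 normalized reads). *Egr1* had 11711 (control) and 4991 (iFIRKO) normalized reads, so the iFIRKO liver was 2.35-fold lower. The log2 fold change was -1.23, with the narrowest interval among those of the 10 genes that were called, from -1.30 to -1.16, and a rank of 132 from the lowest of 13400. Per kilobase, *Egr1* had 2612 normalized reads in control, between *Jund* at 2977 and *Junb* at 2484, and 1113 in iFIRKO, again next above *Junb* at 1023. The place of *Jund* in this order depends on the annotated length used. The log2 ratio of *Egr1* to *Jund* differed between the libraries by -1.29 (-1.39 to -1.18).

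The 2 Ier genes are unrelated in sequence family and are grouped by name. *Ier2* (chromosome 8, 84661331 to 84662852), a nuclear protein gene with a single exon, had 2331 (control) and 1047 (iFIRKO) normalized reads. It was 2.22-fold lower, with a log2 fold change of -1.15 and an interval from -1.31 to -1.0045, and ranked 165 from the lowest. *Ier3* (chromosome 17, 35821684 to 35822923), linked to cell survival, had 85.8 and 66.4 normalized reads, log2 fold change -0.35 (interval -1.06 to 0.33). At 43 and 33 read pairs a difference in *Ier3* was not detectable, and the interval holds both no difference and one of 2-fold.

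*Myc* (chromosome 15, 61985391 to 61990374, 3 exons) had 491 normalized reads in control liver and 321 in iFIRKO liver. The log2 fold change was -0.61, just past 1.5-fold, with an interval from -0.91 to -0.32 that reaches within 1.5-fold. With a pseudocount of a CPM of 1 it was -0.56, and *Myc* was then not called. The ratio of *Myc* to *Jund* differed between the libraries by -0.68 on the log2 scale (-0.98 to -0.37).

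**Figure D3:**
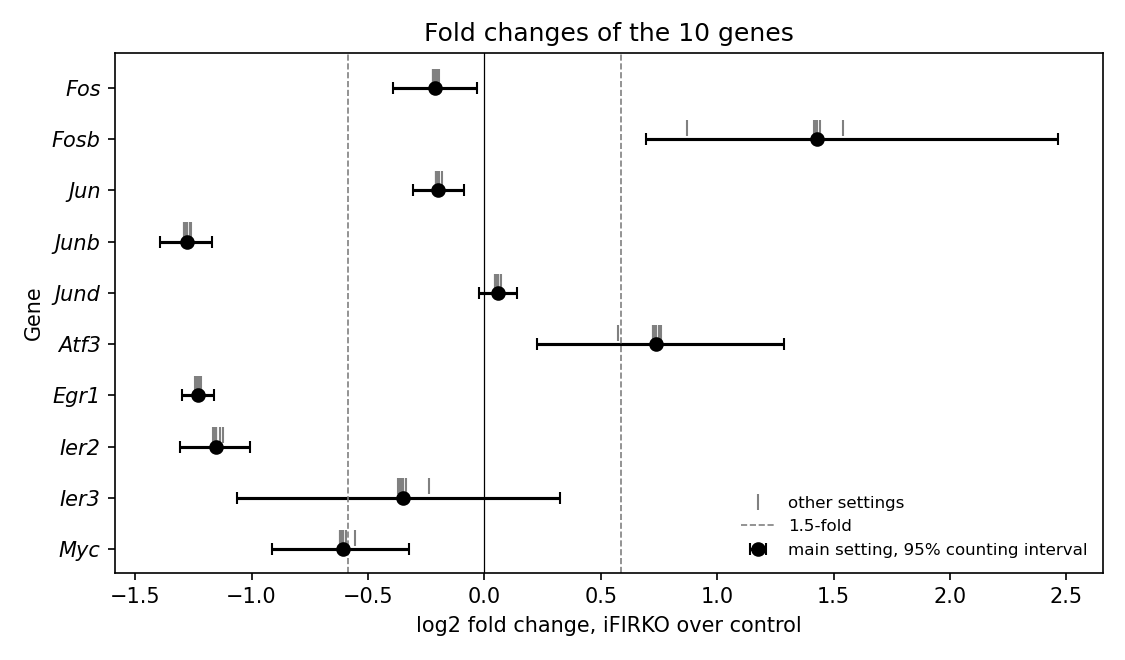
Log2 fold change, iFIRKO over control, of the 10 genes (points) with 95% counting intervals (bars); grey ticks are the values under the other settings and dashed lines mark 1.5-fold. *Junb*, *Egr1* and *Ier2* lie past the lower line with their whole interval, *Myc* straddles it, and the intervals of *Fosb* and *Atf3* are wide.

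Across the 10 genes, with the lengths used, the summed level was 11376 normalized reads per kilobase in control and 7470 in iFIRKO, 34.3% lower. *Junb*, *Egr1* and *Ier2* summed to 6627 and 2824, and the other 7 genes to 4749 and 4647. The difference was 3803 for these 3 genes and 3906 for all 10. The 3 are those with the largest falls in these data, so their part follows from that choice. The difference for all 10 is net, with higher values of *Jund*, *Fosb* and *Atf3* set against lower values of the others. For *Jund* the interval of the log2 fold change (-0.02 to 0.14) holds 0. The 3 also stood high among all genes: per kilobase in control they were at percentiles 92.6 (*Egr1*), 92.3 (*Junb*) and 88.4 (*Ier2*) of 13227 tested genes with a length, and in iFIRKO at 84.9, 83.8 and 77.7. *Fosb* lay at the other end, at percentile 1.07 in control and 8.96 in iFIRKO. The 10 genes are compact, with a median transcript length of 2046 nt beside 2681 nt over 21877 protein-coding genes. Of the 10, 4 (*Jun*, *Junb*, *Jund* and *Ier2*) have a single exon in the transcript used, beside 6.82% of protein-coding genes, and single-exon genes are found among those lower and those within 1.5-fold.

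**Figure D4:**
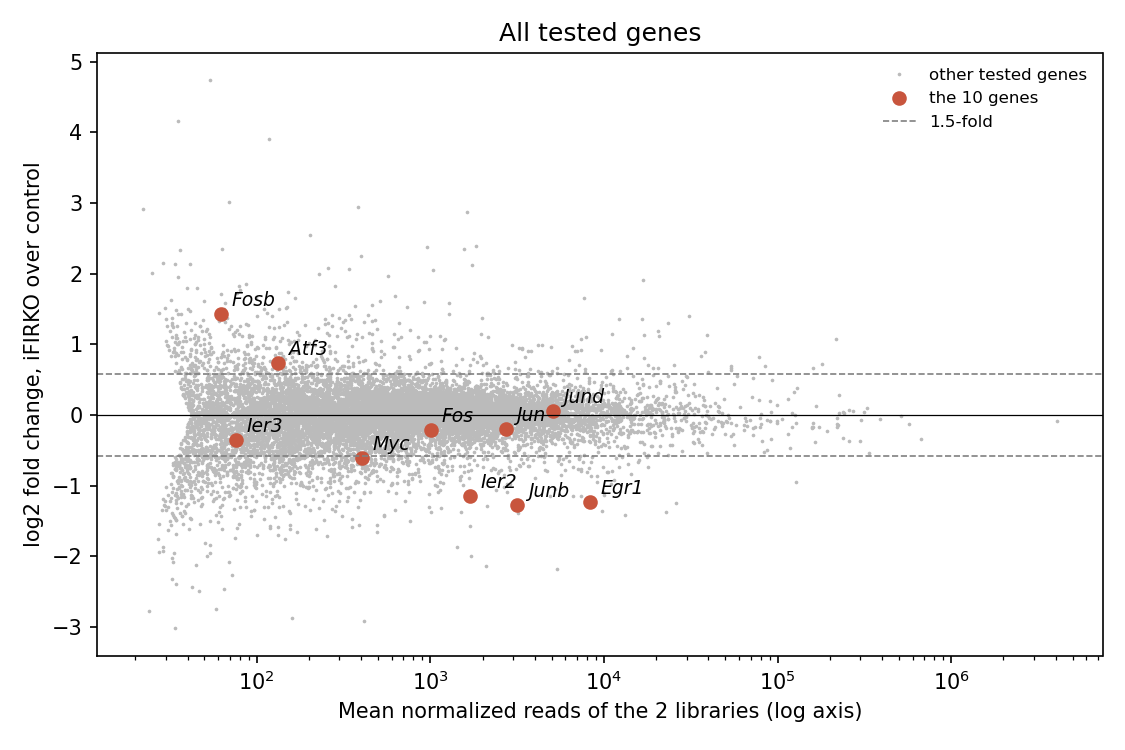
Log2 fold change, iFIRKO over control, against the mean normalized reads of the 2 libraries (log axis) for 13400 tested genes (grey) and the 10 genes (red), with 1.5-fold dashed. *Junb*, *Egr1* and *Ier2* lie at the lower edge of genes with similar reads, while *Fosb* and *Atf3* lie at low reads, where the spread of all genes is wide.

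The other genes of the same programme were described by lists chosen by function, with the share of all tested genes called beside each count. Among other immediate early transcription factors, 16 of 23 were tested, 0 were higher and 1 was lower, beside 4.46% and 7.28% of all tested genes, with a median log2 fold change of -0.08. The lower gene was *Maff*, a small MAF factor without an activation domain, with 137 normalized reads in control and 48.0 in iFIRKO (-1.43). *Btg2*, an antiproliferative gene, had 1838 and 1231 (-0.58), just within 1.5-fold. *Cebpb*, a liver-enriched factor, had 4443 and 3706 (-0.26), *Klf10* 1941 and 1622 (-0.26), and *Klf6* 612 and 434 (-0.49). The list median ranged from -0.18 to 0.02 over the settings tried, so it has no steady sign. Of the closest relatives of *Egr1*, *Egr4* was listed at 0 in both libraries and *Egr2* and *Egr3* were under the minimum, as was *Fosl1* of the Fos family (named here for their relation to the 10 genes).

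Immediate early genes that feed back on signalling or mRNA decay came next. Of 27 genes 26 were tested, 9 were lower and 0 higher, beside 7.28% and 4.46% of all tested genes, and the median log2 fold change was -0.31. *Zfp36* and *Zfp36l1*, which encode proteins that bind AU-rich mRNAs and speed their decay, had 11825 and 6527 normalized reads (-0.86, interval -0.92 to -0.80) and 15228 and 9120 (-0.74, interval -0.79 to -0.69) in control and iFIRKO. *Phlda1* had 4637 in control and 1775 in iFIRKO, log2 fold change -1.38 (interval -1.50 to -1.27). The phosphatase genes *Dusp2* and *Dusp5*, whose products switch off MAP kinases, had 54.5 and 14.1 normalized reads (-1.68) and 57.6 and 19.4 (-1.39). Both reached the minimum only in control, where they are high, so their direction was fixed by that filter. With the minimum required in both libraries, the list median was -0.26. Other phosphatase genes of the list, named after their values were seen, were not called lower. *Dusp1*, far more abundant, had 2592 and 3694 (0.51, interval 0.41 to 0.62), *Dusp6* had 2151 and 1690 (-0.35), and *Dusp4* was under the minimum. The Gadd45 growth arrest genes, also named after their values were seen, went in both directions. *Gadd45b* (549 and 235, -1.21) and *Gadd45a* (296 and 182, -0.69) were called lower. *Gadd45g* had 524 and 747 (0.51) and was not called. *Errfi1*, a feedback inhibitor of the EGF receptor and the most abundant gene of this list, had 50232 and 46030 (-0.13).

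Upstream, the 24 genes of the serum response and ERK pathway, which connect growth factor receptors to *Fos* and *Egr1*, were all tested. Of these, 0 were higher and 0 lower, beside 4.46% and 7.28% of all tested genes, with a median of 0.03. *Map2k2*, a kinase gene of this pathway, had 3190 (control) and 3832 (iFIRKO) normalized reads (0.26). The values farthest from 0 were those of *Elk1*, a partner of serum response factor (359 and 244, -0.55), *Rps6ka1*, an ERK-activated kinase (476 and 698, 0.55), and *Nab2*, a corepressor of EGR1 (1114 and 821, -0.44). These are mRNA levels and say nothing of kinase activity. Among AP-1 partners and Jun regulators, 16 of 18 rows were tested, 0 were higher and 2 lower (all genes, 4.46% and 7.28%), with a median of -0.18. The lower genes were *Batf2* (42.8 and 14.3, -1.34) and *Batf3* (86.4 and 52.6, -0.67, with an interval from -1.47 to 0.03). *Batf2* reached the minimum only in control, so its direction was fixed by that filter. *Mafg* had 3999 and 3268 (-0.29) and *Itch*, a ubiquitin ligase of JUN proteins, 2637 and 2316 (-0.19). *Map2k7* is listed on 2 rows, with 1654 and 1581 on one and 95.9 and 145 on the other (0.58).

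The Myc network, the partners and antagonists that share the dimer partner MAX, had 11 of 12 genes tested, 0 higher and 1 lower (all genes, 4.46% and 7.28%), with a median of -0.01. The lower gene was *Mnt*, a repressor, with 711 normalized reads in control and 464 in iFIRKO (-0.61, interval -0.86 to -0.37). *Mxd4* had 2683 and 2723 (0.02), *Mlx* 1550 and 1535 (-0.01), *Mga* 894 and 871 (-0.04), *Mxd1* 297 and 225 (-0.40) and *Mycl* 378 and 474 (0.32). Of 25 genes known as Myc targets in ribosome and nucleotide synthesis and growth, all tested, 0 were higher and 1 lower (all genes, 4.46% and 7.28%), and 8 of 25 lay below 0, with a median of 0.16. *Ldha*, lactate dehydrogenase A, had 24370 (control) and 35558 (iFIRKO) normalized reads (0.54), *Ncl*, nucleolin, 6154 and 6587 (0.10), and *Npm1*, nucleophosmin, 4301 and 3440 (-0.32). The lower gene was *Ccnd2*, cyclin D2 (393 and 244, -0.68), and *Hk2* had 133 and 88.6 (-0.57). *Myc* was thus called lower while its listed targets had a median above 0.

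Around *Atf3*, the list of its inducers and of ATF4 targets had 8 of 8 genes tested, 1 higher and 2 lower (all genes, 4.46% and 7.28%), with a median of -0.17. *Asns*, asparagine synthetase, was higher like *Atf3* (59.8 and 125, log2 fold change 1.01), whereas *Chac1* (187 and 82.0, -1.15) and *Trib3* (178 and 78.5, -1.14) were lower. *Atf4* itself had 3598 and 3285 normalized reads (-0.13), *Ddit4* 2776 and 2402 (-0.21) and *Ppp1r15a* 812 and 648 (-0.32). Of 8 heat shock genes, 2 were higher and 1 lower (all genes, 4.46% and 7.28%), with a median of 0.12. These were *Bag3* (1056 and 1634, 0.63), *Hspa1a* (148 and 235, 0.66; its near-identical copy *Hspa1b*, at 373 and 520, can share reads) and *Hspb1* (406 and 255, -0.66). *Hspa8* had 34922 and 40556 (0.22), *Hsp90aa1* 9921 and 9998 (0.01) and *Hsph1* 2346 and 2199 (-0.09). Genes of both stress lists were thus called in both directions.

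**Figure D5:**
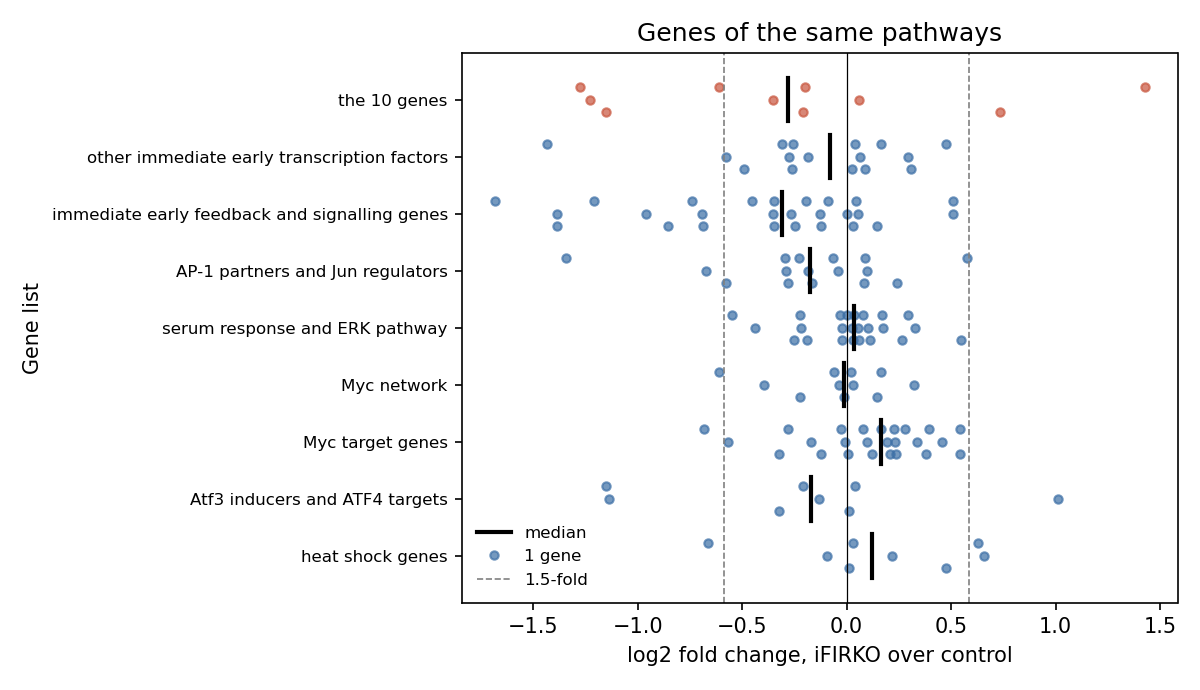
Log2 fold change, iFIRKO over control, of every tested gene (points) in each list, with the median as a black bar and 1.5-fold dashed; 1 library a group. The feedback and signalling list has 9 genes past the lower line, among them *Dusp2* and *Dusp5*, which reached the minimum only in control. The serum response and ERK list has 0 past either line.

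Immediate early genes are expressed in many liver cell types, and in bulk tissue fewer cells of a type and less RNA per cell cannot be told apart. Beside each marker count below stands the share of all tested genes, 4.46% higher and 7.28% lower. Kupffer cell and macrophage markers were lower in iFIRKO for 7 of 10 genes, with a summed level of 33755 normalized reads in control and 22394 in iFIRKO and a median log2 fold change of -0.62. Their most abundant genes were *Clec4f* (8728 and 5677), *Csf1r* (4938 and 3561) and *C1qa* (4584 and 2777). Endothelial markers were lower for 2 of 6 genes (summed 9174 and 6668, median -0.47), with *Stab2* at 2585 and 2203, *Kdr* at 2099 and 1215 and *Clec4g* at 1576 and 1133. Neutrophil markers were lower for 2 of 2 tested of 6 genes (summed 428 and 133, median -1.74), *S100a9* (228 and 64.7) and *S100a8* (117 and 32.2). B cell markers were lower for 3 of 4 tested of 5 (summed 670 and 296, median -1.16), with *Ighm* at 356 and 174 and *Cd79a* at 113 and 17.1. *S100a8* and *Cd79a* reached the minimum only in control, so their direction was fixed by that filter. Of 6 T and NK cell markers 0 were tested (summed 153 and 83.6). No marker of any of these lists was at 0 in both libraries.

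The next 4 marker lists stand beside the same shares of all tested genes, 4.46% higher and 7.28% lower, and small counts in short lists are near those shares. Stellate cell markers were called in 0 of 6 genes (summed 11109 and 12189, median 0.20), with *Dcn* at 5518 and 5740, *Col3a1* at 2598 and 2919 and *Reln* at 1534 and 1688. Cholangiocyte markers were called in 0 of 5 (summed 2347 and 2026, median -0.23), with *Spp1* at 1827 and 1606, *Sox9* at 182 and 155 and *Krt19* at 176 and 131. Hepatocyte markers were lower for 1 of 6 (*Apoa1*) and had a median of -0.04, with *Ttr* at 203980 and 249350 and *Apob* at 158321 and 173667. Erythroid markers were higher for 6 of 6 tested of 7 (summed 13473 and 27016, median 0.98), led by the globin genes *Hbb-bs* (4415 and 8679), *Hba-a1* (3358 and 6524) and *Hba-a2* (2786 and 5520), which are near-identical in pairs and can share reads. Among the 6, *Slc4a1* (27.8 and 64.4) reached the minimum only in iFIRKO, so its direction was fixed by that filter. *Junb*, *Egr1* and *Ier2* lay at -1.28 to -1.15. Beside them, the list medians were -0.62 for Kupffer cells, -0.47 for endothelial cells, -1.16 for B cells and -1.74 for neutrophils, the last from 2 tested genes. The part of these cell types in the values of the 10 genes was not tested.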

How the data were processed

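Liver mRNA libraries (TruSeq stranded mRNA, NovaSeq) of 1 control and 1 iFIRKO sample were used, mapped by sample title. The authors deposited log2 normalized read counts by gene symbol, with 62.2% (control) and 62.1% (iFIRKO) of 53342 rows listed at 0. Serum miRNA data of the study were not analysed here. The submitters' processing notes name mm10, and the aligner, counter, annotation and normalization are not given in the sources used here. Values were returned to the linear scale. Read pairs were estimated by taking the commonest low value as 1 pair (1.99 normalized reads in control, 2.01 in iFIRKO). Of values under 6 pairs, 51.1% and 50.0% were then whole within 0.01, so no count test was run on them. The intervals were computed from pairs rounded to whole numbers, so this limit applies to them as well. Genes with at most 3 read pairs in a library get no fold.

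Positions, exons and lengths (longest protein-coding transcript) came from GENCODE M21 on GRCm38, and promoters from RefSeq. Of tested genes, 98.7% had a length. For the 7 matched promoters the RefSeq start lay 0 to 30 bases from the nearest annotated GENCODE start, except for *Jund* (1210). Named are the 10 genes, *Insr*, up to 3 genes by level and 3 by absolute fold of each pathway list, and up to 3 by level of each marker list. Some genes that this rule names are not reported here. Genes outside that rule are *Prdx2*, *Gm11175*, *Junos*, *Egr2*, *Egr3*, *Egr4*, *Fosl1*, *Dusp1*, *Dusp4*, *Dusp6*, *Gadd45a*, *Gadd45b*, *Gadd45g*, *Apoa1*, *Hspa1b* and *Slc4a1*, chosen after their values were seen. The 10 genes and all lists were chosen with earlier results of these data known. Scripts were tested on simulated data. Alternatives changed the pseudocount, the minimum, the scaling, the fold threshold and the handling of repeated symbols. Intervals used scipy 1.17.1, tables pandas 2.3.3 and numpy 2.4.6, and plots matplotlib 3.10.9, under Python 3.11.15.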

Additional observations from a re-analysis of the deposited data

How the results depend on the processing

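The log2 fold changes of the 10 genes stayed within their counting intervals in all 96 values computed under other settings. *Junb* ranged from -1.29 to -1.26, *Egr1* from -1.24 to -1.22 and *Ier2* from -1.16 to -1.12, and these 3 were called lower in every setting. *Myc* ranged from -0.62 to -0.56 (not called with a pseudocount of a CPM of 1 or a fold above 2), *Atf3* from 0.57 to 0.76 and *Fosb* from 0.87 to 1.54. The number of the 10 genes called higher was 1 (*Fosb*) with a pseudocount of a CPM of 1 and with a fold above 2, 1 (*Atf3*) with the minimum in both libraries, where *Fosb* is not tested, and 0 with a minimum CPM of 5, where *Fosb*, *Atf3* and *Ier3* are not tested. Over all tested genes the counts of higher and lower genes were 371 and 576 with a pseudocount of a CPM of 1, 1960 and 2620 without a minimum, 288 and 440 with a minimum CPM of 5, and 209 and 267 with a fold above 2, against 597 and 976. The other settings kept all counts within 1.5 times, and all 160 list medians stayed within the median counting interval of their genes. No scaling moved the median of all genes by over 0.1 on the log2 scale. No paired analysis was possible because there is 1 library a group. Genes near the minimum of 41.8 normalized reads, *Fosb* and *Ier3* among them, have the largest counting error.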
